A study of Mus musculus with 8 samples.

Results

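Genes that were higher in both Alkbh5 knockout (KO) input libraries than in both wild-type (WT) input libraries were described in mouse spermatogenic cells. The samples were C57BL/6 testis cells of 12-week-old mice, either WT or Alkbh5-/-, in 2 fractions that the titles call PA and RO, here read as the pachytene spermatocytes and round spermatids of the series title. Each genotype and fraction gave 1 input library and 1 library immunoprecipitated with an antibody against N6-methyladenosine (m6A), 8 samples in all. The labels do not say how the allele was made, how the cells were separated, or whether RNA of several animals was pooled. With 1 library per group no difference between groups has a replicate check, and no p-value is given for one.

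The members were chosen by the 4 input libraries themselves. A level is a read count divided by the library's size factor and expressed per 1000000 counts of the mean library total, without correction for gene length. A gene had to reach a level of 10 in some library, and its lower KO level had to be at least 3 times its higher WT level after 0.5 was added to each. Cylc1, Prm2, Tnp2, Odf1 and Akap4 were left out in advance, of which Cylc1 alone met the rule. The count file holds 53465 genes, 13493 reached the level, and 107 of these were members. With Cylc1, 108 genes met the rule, which is 0.8% of the genes at the level, and the mirrored rule (lower in both KO libraries) was met by 124 genes, or 0.919%. When a library was left out of the rule, 395 genes met it without WT PA, 519 without WT RO, 234 without KO PA and 250 without KO RO. The excess of KO over WT is therefore what selected the genes and is given below as a description. Only the deposited peak lists pair identifiers with symbols, so 38 members have a symbol and 69 do not.

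m6A is the most abundant internal mark of messenger RNA. A methyltransferase complex writes it, reader proteins of the YTH family bind it, and ALKBH5 is a nuclear demethylase that can remove it. Alkbh5-deficient mice are known for impaired spermatogenesis and small testes. In pachytene spermatocytes the X and Y chromosomes are transcriptionally silenced in the sex body, and a set of X-linked genes is transcribed again in round spermatids. Round spermatids then elongate, replace histones with transition proteins and protamines, and form the acrosome and tail. Alkbh5 itself carries no symbol in the files and was not analysed here, and its level could not serve as a check of which libraries are KO.

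The input libraries held 9921365 to 13147239 counts, and their size factors lay between 0.986 and 1.077. A single count was worth a level of 0.082 to 0.0896. Levels of the 107 members had a median of 2.3 in WT PA, 2.51 in WT RO, 15.7 in KO PA and 15.7 in KO RO, and their summed levels were 324, 364, 2330 and 2290 in the same order. In WT PA 10 members had 3 counts or fewer and in WT RO 12, while none did in either KO library. The ratio of the lower KO to the higher WT level ran from 3.01 to 21.6 with a median of 3.94, and 54 members lay under 4. In bulk RNA, fewer cells of a type and less RNA per cell cannot be told apart.

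**Figure D1:**
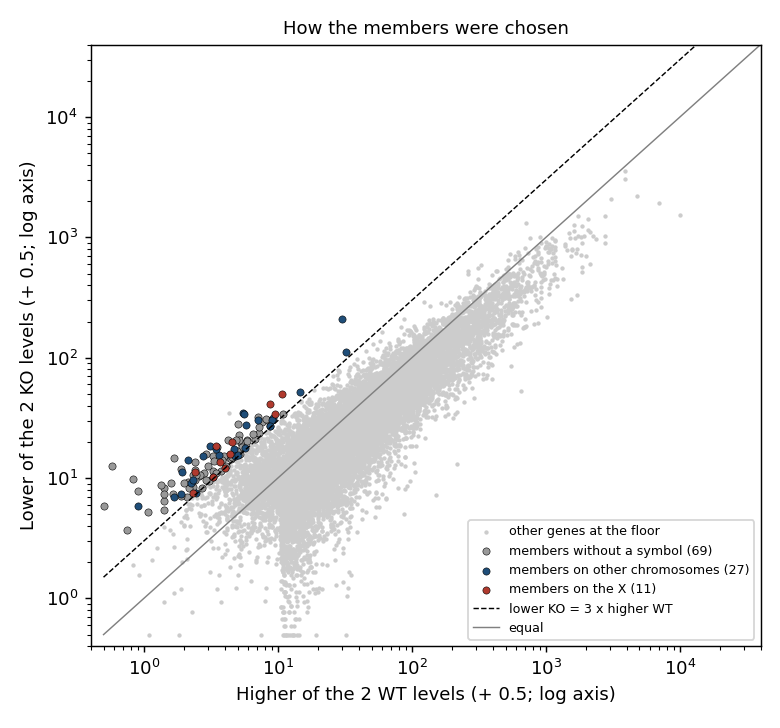
Lower of the 2 KO levels against the higher of the 2 WT levels (both with 0.5 added, log axes) for the 13493 genes at the level of 10. The 107 members lie on or above the dashed line of a 3-fold ratio, and the grey point above it is Cylc1, which the rule leaves out.

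Several members are genes of the spermatid head. H1fnt, a linker histone variant of spermatids, had a level of 9.76 in WT PA, 31.9 in WT RO, 111 in KO PA and 148 in KO RO. Both KO values stood above both WT values, and the WT libraries themselves differed by 3.27-fold (95% interval 2.65 to 4.05, counting error only, as for all intervals on ratios here). Actrt2, an actin-related protein of the perinuclear theca, had levels of 1.23, 5.27, 27.0 and 35.9 in WT PA, WT RO, KO PA and KO RO. Fam209, a gene of acrosome formation in the sperm head, had 3.69, 14.2, 53.7 and 51.6 in the same order. The KO-to-WT ratios in PA and RO describe the selection. Where WT RO is above WT PA, the rule asks for a KO PA level of at least 3 times WT RO. The PA ratio of such a gene must therefore exceed 3, but it need not exceed the RO ratio. The KO-to-WT ratios were 11.3-fold (9.39 to 13.8) in PA and 4.63-fold (4.14 to 5.19) in RO for H1fnt. For Actrt2 they were 21.9-fold (13.1 to 39.7) and 6.8-fold (5.21 to 9.02), and for Fam209 14.6-fold (10.7 to 20.2) and 3.62-fold (3.05 to 4.33). H2al3, an X-linked histone H2A-like variant, was closest to the threshold of this group, with levels of 2.21, 3.51, 11.7 and 14.8. Akap14, an A-kinase anchoring protein of the sperm tail encoded on the X, differed in its stage pattern: its levels were 2.79 in WT PA, 1.34 in WT RO, 13.8 in KO PA and 9.61 in KO RO, so PA exceeded RO in both genotypes.

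The 150 bases upstream of the start sites of 6 of these spermatid and X-linked members are printed because the members were high together, and spermatid promoters are known for short elements bound by CREM and RFX factors. The sequences are RefSeq's of GRCm38.p6, written in the direction of transcription: chr15:98257308-98257457 (minus strand, where RefSeq calls the gene H1f7), chr4:154667868-154668017 (minus), chr2:172472404-172472553 (plus), chrX:9849553-9849702 (plus), chrX:51801234-51801383 (minus) and chrX:67921451-67921600 (minus). Capitals mark matches to the motifs spelled out after the sequences, on either strand: the RFX element in Actrt2, the response element variant in Fam209, that variant and a TATA box in H2al3, a CCAAT box in Usp26, and the variant, the RFX element and a CCAAT box in 4933436I01Rik.
H1fnt: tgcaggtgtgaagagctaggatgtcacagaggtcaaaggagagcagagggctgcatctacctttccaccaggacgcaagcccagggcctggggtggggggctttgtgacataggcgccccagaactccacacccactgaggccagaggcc
Actrt2: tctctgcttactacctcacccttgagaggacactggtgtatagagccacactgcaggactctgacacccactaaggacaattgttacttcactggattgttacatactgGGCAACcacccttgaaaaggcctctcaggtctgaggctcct
Fam209: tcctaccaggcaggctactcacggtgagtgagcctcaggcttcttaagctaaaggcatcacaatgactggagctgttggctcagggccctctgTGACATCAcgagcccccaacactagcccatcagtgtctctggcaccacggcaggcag
H2al3: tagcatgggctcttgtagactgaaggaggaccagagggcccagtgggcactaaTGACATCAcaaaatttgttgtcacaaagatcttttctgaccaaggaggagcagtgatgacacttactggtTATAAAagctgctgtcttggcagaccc
Usp26: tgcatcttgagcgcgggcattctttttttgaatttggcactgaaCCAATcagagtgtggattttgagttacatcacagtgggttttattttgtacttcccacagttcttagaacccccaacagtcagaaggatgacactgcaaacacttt
4933436I01Rik: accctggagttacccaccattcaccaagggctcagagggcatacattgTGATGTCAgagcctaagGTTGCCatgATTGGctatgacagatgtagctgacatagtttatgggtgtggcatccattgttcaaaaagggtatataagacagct
Windows from 250 bases before to 50 after the start were at hand for 26 of the 38 members with a symbol, and each motif was searched on both strands. The full cAMP response element TGACGTCA was in none of the 26, and in 2.03% of 27025 windows of all genes and 3.56% of those of the genes at the level of 10. Its first 6 letters TGACGT were in 2 members (7.69%, against 8.37% of all genes and 13.6% of the genes at the level of 10), among which any full element would also count. TATAAA was in 3 (11.5%, against 15.7% of all genes and 9.09% of those at the level of 10), CCAAT in 8 (30.8%, against 41.1% and 42.3%) and the RFX element GTTGCC in 4 (15.4%, against 14.1% and 16.8%). A variant of the response element, TGACATCA, was added after the sequences were seen: it was in 5 of 26 windows (19.2%), those of Fam209, H2al3, 4933436I01Rik, Gm8232 and Gm8247, against 4.18% of all genes and 3.94% of the genes at the level of 10. In the printed pieces it begins at -57 in Fam209, -97 in H2al3 and, on the opposite strand, -102 in 4933436I01Rik. No match is evidence that a factor binds, and the variant was picked from the members' own letters.

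X-linked genes made up 11 of the 38 members with a symbol (28.9%, exact 95% interval 15.4 to 45.9%), whereas 165 of the 7002 genes with a symbol at the level of 10 are X-linked (2.36%). Read the other way, the rule was met by 12 of 165 X-linked genes (7.27%, Cylc1 included) and by 27 of 6837 others (0.395%). With the rule run without WT PA, WT RO, KO PA or KO RO, the X-linked share of the genes with a symbol was 12.8%, 10.3%, 23.3% and 13.7%. None of the 61 genes with a symbol that met the mirrored rule was X-linked. Usp26, a testis-specific deubiquitinase, had levels of 7.63 in WT PA, 10.2 in WT RO, 49.7 in KO PA and 79.4 in KO RO, ratios of 6.52 (5.22 to 8.21) in PA and 7.78 (6.43 to 9.48) in RO. The intervals of the PA and RO ratios overlapped. Tex13c1, a testis-expressed gene, had levels of 1.15, 1.92, 10.7 and 19.7 in WT PA, WT RO, KO PA and KO RO. 4933436I01Rik had 3.85, 8.28, 40.6 and 48.7, 4930513O06Rik had 1.72, 2.93, 18.0 and 21.1, and Fam90a1b had 3.03, 3.93, 15.2 and 21.9. In all of these the order was WT PA, WT RO, KO PA, KO RO from low to high. Gm6760 was listed at 0.164 (2 counts) in WT PA and 1.84 in WT RO, against 7.08 in KO PA and 22.7 in KO RO. The processed pseudogene Gm4994 ran the other way within KO: 0.164 (2 counts) in WT PA, 3.18 in WT RO, 21.1 in KO PA and 13.0 in KO RO. The processed transcript 4930570D08Rik had 8.94, 4.85, 33.6 and 35.5.

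The X-linked excess was not limited to the genes that passed the rule. Over all 165 X-linked genes with a symbol the median log2 KO over WT was 0.44 in PA and 0.67 in RO, against -0.06 and -0.07 over the 6837 others. Of the 165, 114 were above 0 in PA and 135 in RO. Without the members, the other 154 X-linked genes had medians of 0.42 and 0.56, although the rule took away only genes high in KO. These 154 still hold the left-out genes Cylc1, which met the rule (4 in PA and 3.92 in RO), and Akap4 (2.22 and 1.56). A symbol needs a peak in some list, and 2 of the 4 lists are of KO cells. Among genes with a peak in both WT lists, 53 X-linked genes had medians of 0.24 in PA and 0.45 in RO, against -0.1 and -0.12 for 3175 others. The markers of spermatid stages also differed between the libraries, as given below, and their part in the X-linked difference was not tested.

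**Figure D2:**
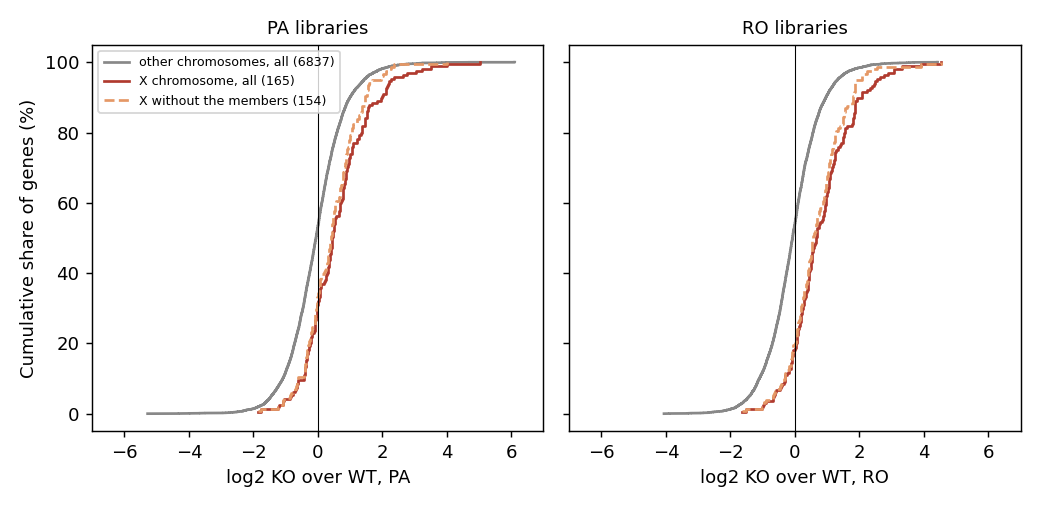
Cumulative share of genes with a symbol by log2 KO over WT in PA (left) and RO (right), for 6837 genes on other chromosomes (grey), all 165 X-linked genes (red) and the 154 X-linked genes that are no members (dashed). The X-linked curves lie to the right of the grey one in both fractions, with medians of 0.44 and 0.67 against -0.06 and -0.07.

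The autosomal protein-coding members held several groups. Gm8232, Gm8247 and Gm3676 are predicted genes of chromosome 14, which carries 6 of the 38 members (15.8%, against 4.23% of genes at the level of 10). Gm8232 had no count in WT PA, a level of 5.1 in WT RO, 33.9 in KO PA and 33.6 in KO RO. Its KO PA level was 138-fold that of 3 counts in WT PA, and the interval of its KO-to-WT ratio in PA started at 112. Gm3676 had 2.38, 2.59, 17.9 and 22.9, with both WT libraries close to each other and both KO libraries close to each other. Gm8247 starts 144190 bp after Gm8232 ends on the same strand, and was named here after its values were seen. How reads shared between near-identical copies were counted is not given, so the values of these genes, H2al3, Fam90a1b and the pseudogenes are uncertain as to which copy they come from.

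Transcription factors and signalling proteins known mainly from other tissues were also among the members. Myrf, a transcription factor of myelinating glia, had levels of 1.31 in WT PA, 2.93 in WT RO, 16.8 in KO PA and 21.9 in KO RO. Pou4f1, a sensory neuron factor, had 0.656, 1.84, 9.05 and 11.3, and the zinc-finger gene Zfp366 had 2.3, 2.76, 10.2 and 9.78. Shisa2, an endoplasmic reticulum protein that restrains Wnt and FGF receptors, had 1.31, 1.42, 10.7 and 11.5. In WT PA and WT RO these levels rest on 16 and 35 counts for Myrf, 8 and 22 for Pou4f1, 28 and 33 for Zfp366, and 16 and 17 for Shisa2. Neto2, an auxiliary subunit of kainate receptors, had 5.08, 6.61, 39.2 and 29.8. Podxl, a sialomucin of podocytes and endothelium, had 8.77, 4.43, 35.7 and 31.1, and Spsb1, an adaptor of a ubiquitin ligase, had 8.61, 8.03, 33.9 and 30.1. Sema4d, a ligand of plexin-B receptors, had 1.39, 0.167 (2 counts), 10.1 and 6.87, and the olfactory receptor gene Olfr267 had 0.246 (3 counts), 1.17, 6.45 and 10.6. Timm17a, a subunit of the mitochondrial import channel, had 8.28, 5.27, 28.0 and 26.4. Endothelial cells also express Podxl: 10 of 16 listed markers of them have a symbol in the files, and their summed level was 244 in WT PA, 120 in WT RO, 346 in KO PA and 358 in KO RO. Their median log2 KO over WT was 0.67 in PA and 1.7 in RO, against -0.01 and -0.02 over all genes at the level of 10. At least 2-fold higher in both KO libraries were 2 of the 10 and lower 0, where 3.87% and 5.93% of the genes with a symbol at the level of 10 were. These 2 entered the count through KO alone. Eng had levels of 9.1, 4.85, 24.1 and 37.8 in WT PA, WT RO, KO PA and KO RO, and Erg had 3.12, 1, 11.6 and 5.29. In PA only Esam was lower in KO (log2 -1.09), and in RO all 10 were higher, Esam by 1.46. None of the 10 was a member or at 0 in any library, and their part in the values of Podxl was not tested.

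Transcripts without a coding sequence were a larger share of the members than of the genes at the level of 10. Protein-coding genes were 27 of 38 members (71.1%, 54.1 to 84.6%) against 88.9%. Processed pseudogenes were 4 (10.5% against 2.43%), long intergenic RNAs 3 (7.89% against 3.17%), and the other 4 were an antisense RNA, a processed transcript, a bidirectional promoter RNA and a locus of the class TEC, a gene model still awaiting experimental proof. AC091683.2, a long intergenic RNA of chromosome 13, had levels of 13.5 in WT PA, 29.4 in WT RO, 225 in KO PA and 208 in KO RO, ratios of 16.6 (14.2 to 19.6) and 7.07 (6.32 to 7.93). It and H1fnt were the members whose KO levels both exceeded 100. The processed pseudogene Gm12669 had 4.43, 5.02, 41.2 and 34.5. Another, Gm8696, had 0.41 (5 counts), 0, 12.8 and 5.38. Its KO RO level was 21.4-fold that of 3 counts in WT RO, and the interval of its KO-to-WT ratio in RO started at 16.9. The bidirectional promoter RNA D430020J02Rik had 1.64, 1.34, 13.7 and 20, the antisense RNA 1700109G14Rik had 2.21, 2.26, 14.7 and 15.6, and the intergenic RNA 4933434M16Rik had 3.28, 4.18, 17.1 and 18.7. Whether counting used strand is not given, so reads of the antisense and bidirectional RNAs cannot be told apart from those of their partner genes.

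Short genes were a larger share of the members than of the genes at the level of 10. RefSeq spans, from first to last exon, were found for 34 of the 38, with a median of 6412 bp against 28173 bp for genes at the level of 10. Spans under 3000 bp made up 13 of 34 (38.2%) against 6.76%, and among protein-coding genes 34.6% against 4.28%. The X-linked and the short-gene shares overlapped in part. Of 19 X-linked genes under 3000 bp 5 were members (26.3%), of 142 longer X-linked genes 5 (3.52%), of 437 short genes elsewhere 8 (1.83%) and of 6150 longer ones 16 (0.26%). The median log2 KO over WT of the short X-linked genes was 1.01 in PA and 1.29 in RO, and that of short genes elsewhere was 0 and -0.17.

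**Figure D3:**
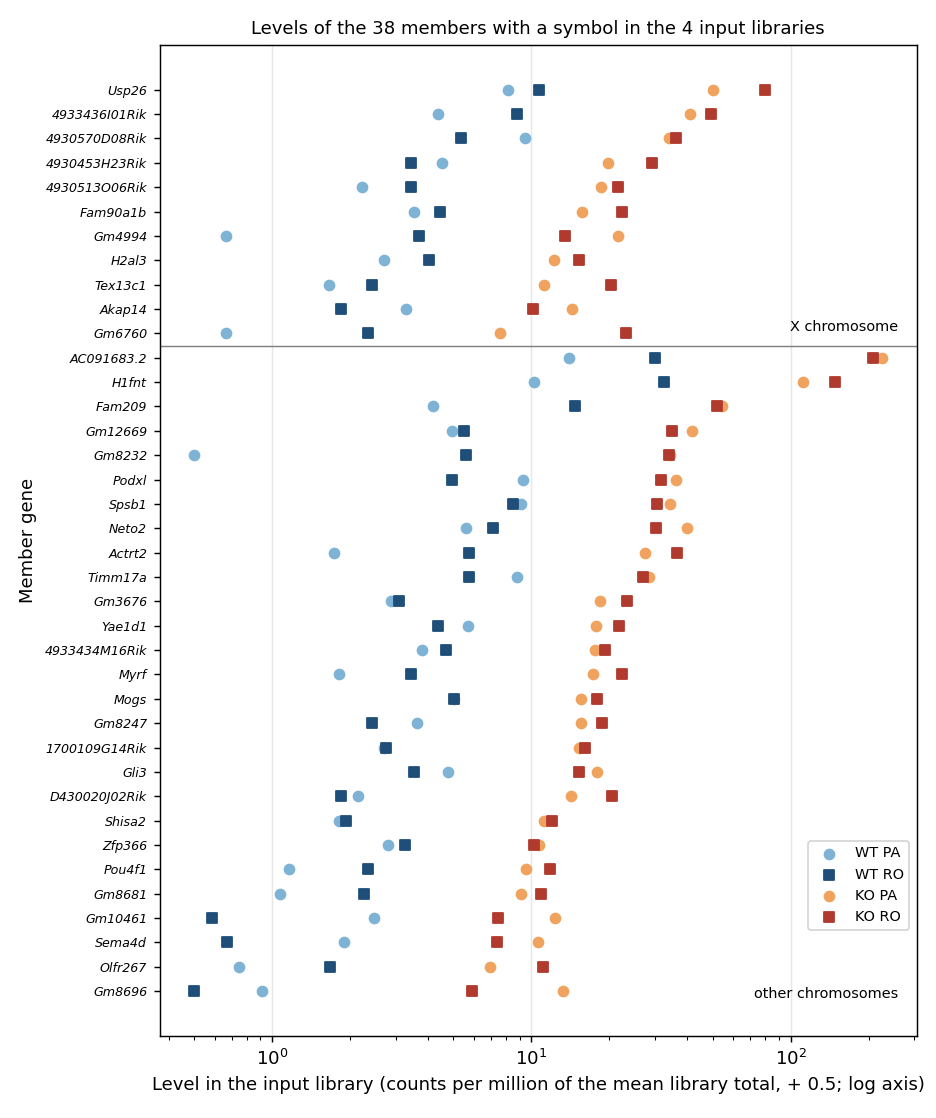
Levels of the 38 members with a symbol in WT PA, WT RO, KO PA and KO RO (log axis, 0.5 added), with the 11 X-linked genes above the grey line and the others below it, each ordered by the lower KO level. In every row both KO points lie to the right of both WT points, as the rule requires, while the order of PA and RO varies.

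The 69 members without a symbol had median levels of 2.21 in WT PA, 2.01 in WT RO, 15.3 in KO PA and 14.4 in KO RO, where the 38 with one had 2.58, 3.1, 17.2 and 21.2. Their highest KO PA level was 44.1, against 225. They are 64.5% of the members against 48.1% of the genes at the level of 10. ENSMUSG00000105985 had levels of 10.4, 2.59, 41.6 and 33.4, and ENSMUSG00000107756 had 6.56, 5.19, 33.6 and 31.5. These were the identifiers of highest lower KO level, and nothing in the files says what they encode. Just inside the threshold lay Gm10461 (ratio 3.02), H2al3 (3.05), Timm17a (3.06) and Akap14 (3.07), and just outside it Lrrc8a (2.98), Itpripl2 (2.96), Gm45033 (2.94) and Gm7275 (2.93).

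By stage, the members did not lean to one fraction as a whole. The rule sets the higher WT against the lower KO of the same 4 values, and most members reach the level of 10 only in KO, so it also limits how far PA and RO can differ; the stage values are a description and test nothing. In WT, 16 were at least 2-fold higher in RO than in PA and 15 at least 2-fold lower, where 11.8% and 9.65% of all genes at the level of 10 were. In KO the numbers were 4 and 6, where 5.4% and 5.62% of all genes were. Fewer genes in all were thus 2-fold apart in KO, and the members rest on fewer counts in WT. The median log2 RO over PA was 0.09 in WT and -0.07 in KO, against -0.02 in both over all genes. Members with a symbol had 0.27 in WT, with 11 at least 2-fold higher in RO and 2 lower, and 0.16 in KO, with 1 and 1. Members without one had 0.01 and -0.15.

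Members that stood higher in RO than in PA in WT included the spermatid genes above. In WT, RO exceeded PA 4.29-fold for Actrt2 (2.41 to 8.1), 3.85-fold for Fam209 (2.76 to 5.48), 3.27-fold for H1fnt and 2.15-fold for 4933436I01Rik (1.5 to 3.11). In KO the same ratios were 1.33 (1.14 to 1.55), 0.959 (0.855 to 1.08), 1.33 (1.24 to 1.44) and 1.2 (1.06 to 1.36). That these genes lie closer together in KO is favoured by the rule, which asks for a KO PA level of at least 3 times WT RO. Gm6760 kept a log2 RO over PA of 1.82 in WT and 1.62 in KO. Gm10461 lay on the other side, at -2.08 in WT, with 24 counts in PA and 1 in RO, and -0.72 in KO. X-linked members had medians of 0.56 in WT and 0.32 in KO, and 9 of 11 were higher in KO RO than in KO PA. Of all 165 X-linked genes with a symbol 90 were, with medians of -0.19 in WT and 0.1 in KO, and of all 13493 genes at the level of 10 6518 were.

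**Figure D4:**
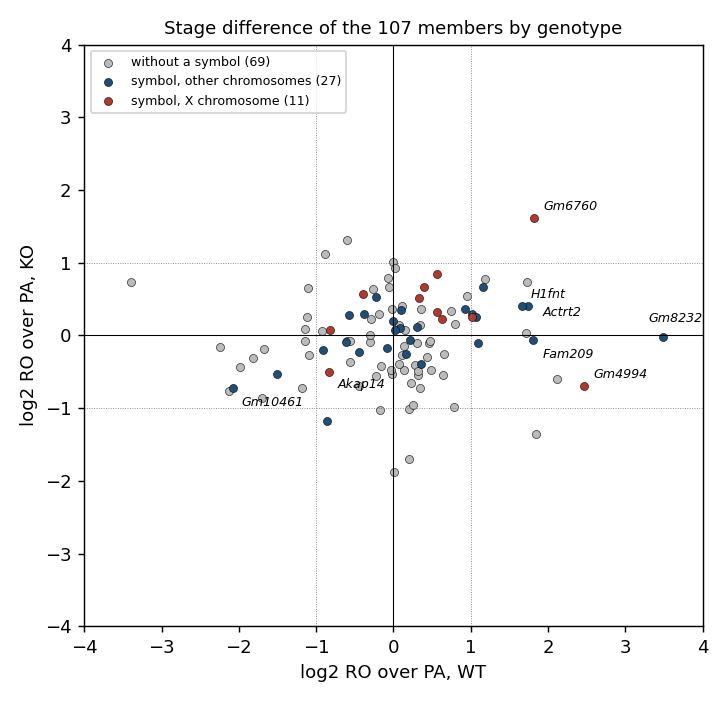
log2 RO over PA in KO against the same in WT for the 107 members, by symbol and chromosome, with dotted lines at 2-fold. In WT 16 members lie beyond the right dotted line and 15 beyond the left one, and in KO 4 lie above and 6 below.

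The lists of stage markers give the setting of these values. Of 49 listed markers of elongating spermatids 26 were measured at the level of 10, and H1fnt and Actrt2 were members. Their summed level was 1270 in WT PA, 2030 in WT RO, 1770 in KO PA and 2850 in KO RO, the median log2 KO over WT was 1.35 in PA and 1.08 in RO against -0.01 and -0.02 over all genes at the level of 10, and 12 of 26 were at least 2-fold higher in both KO libraries and 1 lower. Of the 12, 7 are members or among the 5 genes that the rule leaves out, and 5 are neither. Here and in the lists below the counts use the same input values as the rule, so they are a description. A gene can also enter a list by reaching the level of 10 in KO alone. Among the 5, Actrt3 did so (0.164, 5.02, 11.5 and 11 in WT PA, WT RO, KO PA and KO RO). For this and the lists below, the background is all genes with a symbol at the level of 10. Of these, 3.87% were at least 2-fold higher in both KO libraries and 5.93% lower. Markers of pachytene spermatocytes (14 of 25 measured, 0 members) summed to 2170, 2150, 1640 and 1780 in the same order, and those of round spermatids (13 of 31, 0 members) to 934, 1370, 800 and 944. PA and RO libraries of a genotype were thus little separated by pachytene markers. Of the 14 pachytene markers 0 were at least 2-fold higher in both KO libraries and 1 lower, and of the 13 round spermatid markers 3 and 1. Of 25 measured sperm tail genes 4 were 2-fold higher in both KO libraries and 8 lower, and Akap14 was the only member; of the 4, 3 are members or left-out genes. Of 16 measured genes of chromatin compaction and the sperm head 8 were higher and 0 lower, but 5 of the 8 are members or left-out genes and 7 are also on the list of elongating spermatids. Genes of the acrosome and egg interaction (11 of 31 measured, 0 members) went the other way in sum, at 902, 1170, 453 and 569. Of these 11, 1 was higher in both KO libraries and 2 lower, and Fam209 is not on that list. Among 5 measured genes of X- and Y-linked spermatid families, 4 were higher and their summed level was 29.4, 48.4, 109 and 188, the left-out Cylc1 among them. Cylc1, Zfy1 (5.49, 9.46, 23.9 and 27.5) and Cypt4 (2.62, 6.36, 16 and 18.5) reached the level of 10 in KO alone. The m6A enzymes and readers (15 measured) held no member, and neither did the lists of Sertoli, Leydig, myoid and immune cells, of stress, interferon and p53 responses, and of germ cell metabolism. The part of spermatid markers in the members' values was not tested.

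m6A peaks of the members were fewer in the WT lists than in the KO lists, where the input was also deeper for these genes. In the authors' deposited lists 7 of the 38 members had a peak in WT PA (18.4%, Wilson 95% interval 9.22 to 33.4%), against 58.6% of genes with a symbol at the level of 10. In WT RO 15 had one (39.5%, 25.6 to 55.3%, against 69.9%), in KO PA 31 (81.6%, 66.6 to 90.8%, against 76.4%) and in KO RO 26 (68.4%, 52.5 to 80.9%, against 68.8%). The KO shares were thus near the background and the WT shares below it. With peaks of a false discovery rate under 0.05 alone, the WT PA share was 7.89%, or 3 members. A peak in a KO list and in no WT list was found for 21 members (55.3%, against 17.6% of all), among them H1fnt, Fam209, H2al3, Akap14 and 4933436I01Rik. A peak in a WT list and in no KO list was found for 4 (Timm17a, Gm12669, Actrt2 and Gm10461), which is 10.5% against 16% of all. Peaks in all lists were found for 4 (Tex13c1, Usp26, Fam90a1b and Pou4f1), which is 10.5% against 40.5%. Every symbol comes from a peak in some list, so a member without WT peaks had to have a KO peak.

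The members were also set beside other genes of like input level. At a WT PA level under 3, 3 of 20 members had a WT PA peak against 17.6% of the other genes, and from 3 to 10, 4 of 17 against 39.6%. At a KO PA level from 10 to 30, 18 of 23 members had a KO PA peak against 70.9%. In WT RO the shares were 6 of 18 against 43.3% under a level of 3 and 7 of 16 against 53.7% from 3 to 10. In each of these WT ranges the members' share was below that of the other genes, on few members. In the other genes the share was larger at higher input levels in every list, and the part of the input level in the members' WT-to-KO difference was not tested.

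**Figure D5:**
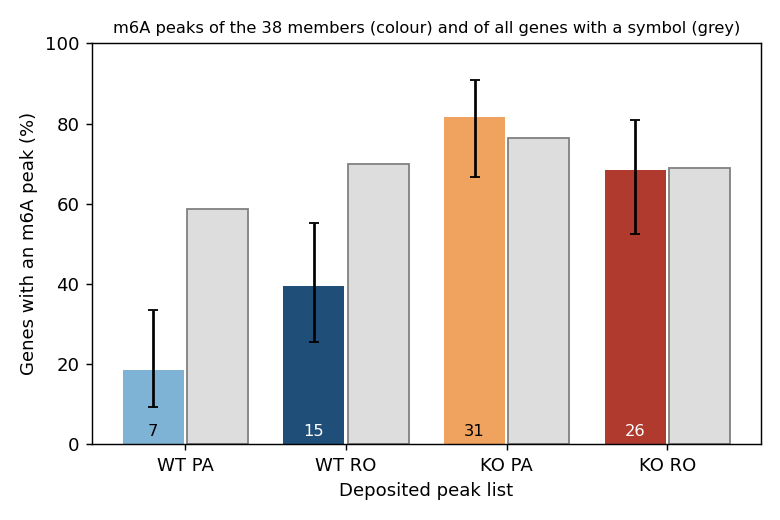
Share of the 38 members with a symbol that have an m6A peak in each deposited list (colour, with the Wilson 95% interval and the number of members at the foot) beside the share of all 7002 genes with a symbol at the level of 10 (grey). Members stand at 18.4% and 39.5% in the WT lists and at 81.6% and 68.4% in the KO lists.

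The members had 94 peaks in the authors' deposited tables, 23 in WT lists and 71 in KO lists. On the same strand and by 1 bp or more, 17 WT peaks overlapped one of KO, and 28 KO peaks one of WT. By the authors' annotation 42 lay in coding sequence, 11 in 3′ UTRs, 3 in 5′ UTRs, 1 at a start codon and 37 in other exons, of which 27 belong to noncoding genes and pseudogenes. Over all peaks of a list, 49.8 to 56.4% lay in coding sequence, 20.7 to 24.6% in 3′ UTRs and 19.2 to 21.7% in other exons. The authors' deposited table gives H1fnt a coding-sequence peak with a fold of immunoprecipitate over input of 19.7 in KO PA (mm10, chr15:98256188-98256571) and 6.1 in KO RO. It gives Usp26 a coding-sequence peak in all lists, with folds of 22.1 in WT PA, 23.8 in WT RO, 22.2 in KO PA and 53.6 in KO RO (chrX:51756624-51757342). In the authors' deposited table the intergenic RNA 4933434M16Rik had folds of 35 in WT RO, 59.4 in KO PA and 174 in KO RO, and Pou4f1 had coding-sequence folds of 8.43, 9.42, 25.2 and 129 in WT PA, WT RO, KO PA and KO RO. The authors' false discovery rate of the 2 WT peaks of Pou4f1 was 0.748 and 0.409, and those of its KO peaks 2.51e-07 and 3.16e-41. Zfp366 had a coding-sequence fold of 52.6 in KO PA and 7.86 in KO RO in the authors' deposited table, and no WT peak. In the authors' deposited table the false discovery rate was not below 0.05 for 4 of 7 WT PA and 5 of 16 WT RO peaks of members. It was not for 2 of 40 in KO PA and 0 of 31 in KO RO. Over all peaks of the same 4 lists the shares were 6.88%, 13.1%, 2.15% and 3.54%. The folds cannot be read as a change of m6A between genotypes, since the input depth at these genes differed between the lists.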

How the data were processed

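The authors deposited whole-number read counts per Ensembl gene of the 4 input libraries, not normalized, and a peak list for each genotype and fraction. Peaks come, per the file headers, with a p-value, the log10 of its p-value and of its false discovery rate, and a fold, here read as the ratio of immunoprecipitate over input. Each list is of 1 library pair. The submitters' processing notes name cutadapt 2.5, HISAT2 2.1.0, HOMER 4.10.4 and mm10. The counting tool, annotation, strand handling and peak caller are not given in the sources used here.

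Counts were scaled by median-of-ratios size factors to 1000000 counts of the mean library total (Python 3.11.15, pandas 2.3.3, scipy 1.17.1), with TMM factors (edgeR 4.0.16, R 4.3.3) as an alternative. The selection code was tested on simulated data with known answers. Ratio intervals are exact binomial on the counts of the pair, and cover counting error only. A peak was joined to a gene by Ensembl identifier. Each group has 1 library, so no test between groups was made. Genes were named by these rules: the 12 members of highest ratio and the 12 of highest lower KO level, 4 at each end of RO over PA in KO, 4 of highest KO peak fold, 4 with most peaks, members on a list, 4 genes on each side of the threshold, and 2 identifiers. They cover 32 of the 38 symbols. The members and lists were chosen with earlier results of these data known. Alternatives varied scaling, floor, added value, ratio, fold, peak threshold and join.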

Additional observations from a re-analysis of the deposited data

Results flagged for a closer look

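The members' median log2 RO over PA had opposite signs in the genotypes, 0.09 in WT and -0.07 in KO; the difference was not tested. The X-linked processed pseudogene Gm4994 was higher in RO than in PA in WT (2.47, on 2 counts in WT PA) and lower in KO (-0.69); this difference was not tested either. The rule that chose the members also limits how PA and RO can differ in them.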

How the results depend on the processing

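Of 89 recomputed values of 18 results, 63 stayed within 1.5 times (counts) or within the counting interval (shares and medians), and no median changed sign. No paired analysis was possible because each group has 1 library, so groups share a single replicate number; genotype with fraction as a block was not fitted, since genotype chose the members. The number of members was 205 with total counts only, 56 with 2 added, 193 with a floor of 5, 50 with a floor of 20, 470 with no floor, 429 at a ratio of 2 and 53 at a ratio of 4. After the data were seen, each input library was left out of the rule: 395 genes met it without WT PA, 519 without WT RO, 234 without KO PA and 250 without KO RO, where a condition fewer is imposed, and all 107 members stayed without either WT library, 92 and 91 without KO PA and KO RO. The X-linked share was 14.1% at a ratio of 2 and 10.3% to 23.3% with a library left out, against 2.25 to 2.39% of the floor genes. Members at least 1.5-fold lower in WT RO were 24 and 3-fold lower 8; 3-fold higher in WT RO were 10. In KO, 15 were 1.5-fold and 1 was 3-fold higher in RO, and 17 and 2 lower. The X-linked median log2 KO over WT in PA was 0.72 with total counts only, a scaling that moves the median of all genes from -0.01 to 0.26, and 0.24 among genes with a peak in both WT lists; in RO it was 0.45 among the latter and 0.46 with a peak in all 4 lists. The peak shares stayed within exact binomial intervals, though 2 left the Wilson intervals printed with them: WT PA was 7.89% (3 members) at a false discovery rate under 0.05, and KO RO 81.6% with the KO lists exchanged. Members with peaks in KO lists alone were 18 to 25. Members whose KO peaks overlapped no WT peak, with or without WT peaks elsewhere in the gene, were 22 at an overlap of 1 bp. They were 26 at an overlap of 50% of both peaks. Counts of 3 or fewer in WT make folds of such members imprecise. One library per group leaves the spread between samples unmeasured.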
